A study of Mus musculus with 3 samples.

Results

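NF-κB is a family of dimeric transcription factors, and 10 genes of its subunits and its inhibitors and regulators were examined in mouse pancreatic islets exposed to inflammatory cytokines. The genes were taken by name: the 5 subunit genes Nfkb1, Nfkb2, Rel, Rela and Relb, and the 5 genes of inhibitors and regulators Nfkbia, Nfkbie, Nfkbiz, Tnfaip3 and Bcl3, among 22350 protein-coding genes on chromosomes 1 to 19 and X. All 10 were found in the GENCODE M1 annotation of the mm9 genome. Islets are the endocrine cell clusters of the pancreas. Islets of CD1 mice aged 8 to 12 weeks rested for 4 to 6 hours after isolation and then spent 4 days in RPMI that held TNFα at 0.16 ng/ml, IL-1β at 0.25 ng/ml and IFNγ at 1.6 ng/ml. The methods give ICR mice and a narrower range of age, and they state that DNA from 4 ChIP experiments was combined into 1 H3K4me1 library, so there is no replicate and no measured error. The data are the positions of 65709 H3K4me1 enriched regions of these cytokine treated islets, without a read count or a height. The label names them as those of cytokine treated islets, and whether loci with little signal had been left out of the list is not given. The depth is unknown, and a gene without a region may carry the mark below the calling threshold. The 2 RNA samples of the series and H3K4me1 in untreated islets were not analysed here, so no value below shows a change with treatment.

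NF-κB dimers are held inactive in the cytoplasm by IκB proteins. TNFα and IL-1β activate a kinase that marks IκB for destruction, and the freed dimers enter the nucleus and bind short DNA elements called κB sites. Among the genes they are known to switch on are those of their own subunits and of their inhibitors, which closes a feedback loop. H3K4me1 is a histone mark found at active and poised enhancers and on the flanks of active promoters, whose centre often carries other methylation states instead.

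At 9 of the 10 genes, at least 1 annotated start site lay inside an H3K4me1 enriched region in cytokine treated islets, whereas this was so for 39.1% of all protein-coding genes. The exception was Rel, the gene of the subunit c-Rel. Counting the start sites of protein-coding transcripts alone left 8 genes, since the covered start site of Nfkb1 belongs to a transcript that is not protein-coding. The share of all protein-coding genes by this rule was not computed, and the 39.1% does not apply to it. The first start site, meaning the one farthest upstream, was inside a region at 7 genes (31.1% of all protein-coding genes): Nfkb2, Rela, Relb, Nfkbia, Nfkbie, Nfkbiz and Bcl3. At Nfkb1 and Tnfaip3 it lay in a gap with a region within 5 kb on both sides (13.9% of all protein-coding genes). At Tnfaip3 the nearer edge was only 138 bp away, and edges are known to 200 bp at best. At Rel a region lay within 5 kb on the downstream side only, and 19.1% of all protein-coding genes had a region on a single side in this way. The distance of 5 kb was chosen after the positions had been seen. With 2 kb in its place, Nfkb1 alone had a region on both sides (9.9% of all protein-coding genes), since the nearest region downstream of the first start site of Tnfaip3 began at 2063 bp.

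Sequences around the start sites are given first, with their κB matches. The search used the 10-letter κB consensus on both strands in the 300 bp from 250 bp before to 50 bp after the first start site, in the mm9 reference. A match was present at 8 of the 10 genes, whereas 8.89% of all protein-coding promoters of this length held a match. The promoters of the 10 genes were rich in G and C, with a median of 66.8% and a range from 48.0% to 75.3%, against a median of 55.3% over all genes. Among the 15480 promoters within this range, 10.5% held a match. This range is too wide to match the 10 genes closely in G and C, since its low end is that of Tnfaip3, which held no match. A match of letters is a description of the sequence and does not show that NF-κB bound there.

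The 4 promoters below had a match before the start site and lay inside an enriched region over all 250 bp. Each runs 5′ to 3′ on the strand of its gene and ends at the base before the first start site, with κB matches in capitals. Overlapping matches run together, as at Nfkb2, where 3 matches fell on 2 separate places.
Nfkb2, chr19:46378977-46379226, plus strand: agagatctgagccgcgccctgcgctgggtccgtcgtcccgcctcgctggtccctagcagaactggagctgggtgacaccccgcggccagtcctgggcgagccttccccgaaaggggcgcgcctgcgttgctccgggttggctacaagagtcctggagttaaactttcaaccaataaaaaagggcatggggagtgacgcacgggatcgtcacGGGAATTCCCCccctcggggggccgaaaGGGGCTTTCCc
Relb, chr7:20214788-20215037, minus strand: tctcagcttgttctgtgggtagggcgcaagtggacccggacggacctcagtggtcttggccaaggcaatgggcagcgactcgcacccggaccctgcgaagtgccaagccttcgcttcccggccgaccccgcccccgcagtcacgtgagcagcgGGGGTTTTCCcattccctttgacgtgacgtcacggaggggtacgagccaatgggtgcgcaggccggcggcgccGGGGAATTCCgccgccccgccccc
Nfkbia, chr12:56593635-56593884, minus strand: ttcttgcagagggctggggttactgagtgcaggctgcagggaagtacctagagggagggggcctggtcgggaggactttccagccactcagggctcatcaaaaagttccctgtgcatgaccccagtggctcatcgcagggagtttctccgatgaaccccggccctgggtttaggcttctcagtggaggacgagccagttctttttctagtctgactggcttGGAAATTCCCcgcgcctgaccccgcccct
Nfkbie, chr17:45692415-45692664, plus strand: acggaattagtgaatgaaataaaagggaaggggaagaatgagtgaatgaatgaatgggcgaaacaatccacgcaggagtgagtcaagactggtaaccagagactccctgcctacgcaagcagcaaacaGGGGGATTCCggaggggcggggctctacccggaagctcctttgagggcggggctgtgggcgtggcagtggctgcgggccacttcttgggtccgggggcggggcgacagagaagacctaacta

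The matches in these promoters began close to the first start site. Those of Nfkb2 began 39, 38 and 11 bp before it, those of Relb 97 and 24 bp before it, that of Nfkbia 29 bp and that of Nfkbie 122 bp before it. At 4 further genes the match lay elsewhere, and it is shown here with 10 bp on either side, 5′ to 3′ on the strand of the match and with the match in capitals. Nfkbiz and Bcl3 had theirs 30 and 17 bp after the first start site, inside an enriched region, whereas those of Nfkb1 (31 bp after) and Rel (starting 91 bp before, with an overlapping match on the other strand) lay outside regions.
Nfkbiz, chr16:55838973-55838982, minus strand: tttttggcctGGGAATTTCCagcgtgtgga
Bcl3, chr7:20408093-20408102, minus strand: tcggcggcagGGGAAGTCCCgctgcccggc
Nfkb1, chr3:135354471-135354480, minus strand: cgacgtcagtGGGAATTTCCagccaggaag
Rel, chr11:23671052-23671061, minus strand: cgtaagcagcGGGAAATCCCcccccctccc

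The 300 bp of Rela and Tnfaip3 held no match. Tnfaip3 has other start sites, and 12 bp before that of its transcript Tnfaip3-001 (18735216) a match was present in a part of the gene that was outside regions. Further upstream of the same start site lay another, also outside regions, and at the start site 18728651 a match lay inside the region of 5.8 kb within the gene. With the windows of every annotated start site, a choice made after the values were seen, 9 of the 10 genes held a match, against 16.5% of all protein-coding genes. Only Rela had none.
Tnfaip3, chr10:18735219-18735228, plus strand: ttgccaacagGGGGATTTCCgatggaaatt

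A shorter 9-letter form, GGANNTTCC, which overlaps the consensus, was present in the 300 bp of 4 genes (Nfkb1, Nfkbia, Nfkbie and Nfkbiz) and in 4.41% of all promoters.

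**Figure D1:**
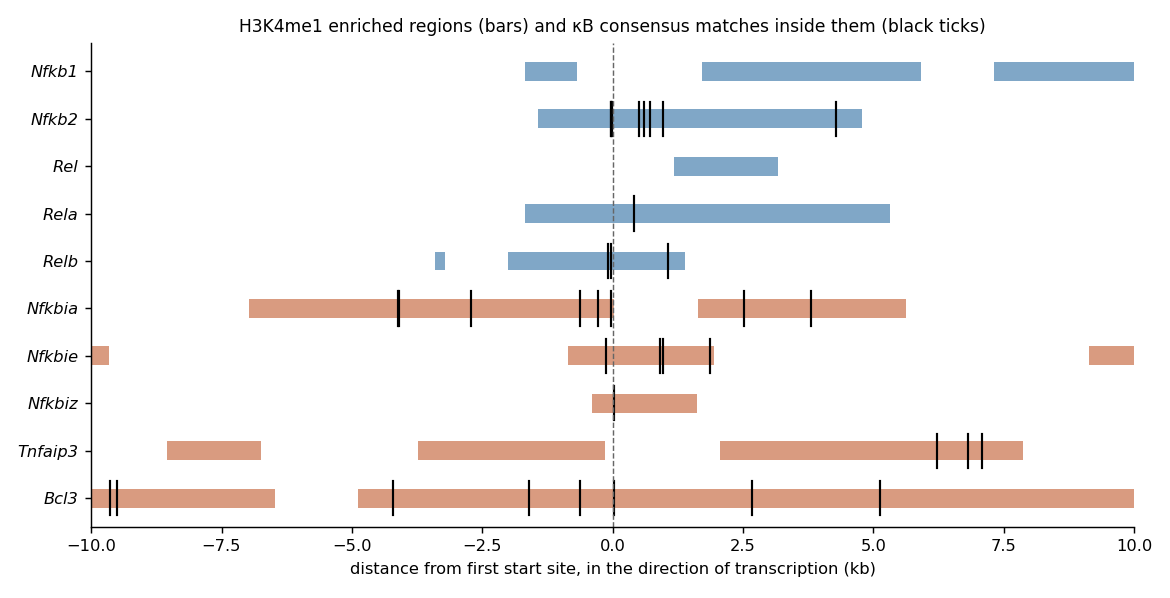
H3K4me1 enriched regions (bars; blue, subunits; orange, inhibitors and regulators) within 10 kb of the first start site of each of the 10 genes in cytokine treated islets, with distance in kb in the direction of transcription on the horizontal axis; black ticks mark κB consensus matches inside regions. The dashed line is the first start site, which fell inside a bar at 7 genes and in a gap between bars at Nfkb1 and Tnfaip3.

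The 10 genes had 73 regions that overlapped the gene or lay within 50 kb of any of its start sites. None was shared between 2 members. The regions covered 269.2 kb, had a median width of 2600 bp and ranged from 200 to 21200 bp. Over all protein-coding genes, counted in the same way, the median width was 1400 bp. The number of regions per gene had a median of 7.5 and ranged from 1 at Rel to 13 at Nfkb1, against a median of 5 over all protein-coding genes. This count rises with the length of a gene, and Nfkb1 is the longest of the 10. Its order depends on the window: within 100 kb of a start site Bcl3 (19 regions) and Nfkb2 (18) had more than Nfkb1 (16), and with each region given to the closest start site of any gene Tnfaip3 (15) had more than Nfkb1 (11), while Nfkb2 and Nfkbie had 1 region, as Rel did. At the limit of 50 kb, the farthest region counted lay 49482 bp from a start site of Bcl3 and the nearest not counted lay 50313 bp from one of Nfkb2.

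To set length aside, the covered share of the 100 kb centred on the first start site was measured. Its median over the 10 genes was 22.5%, and over all protein-coding genes 7.0%. The order was Bcl3 (53.6%), Nfkbia (38.2%), Nfkb2 (28.8%), Nfkb1 (26.8%), Nfkbie (23.8%), Tnfaip3 (21.2%), Rela (15.6%), Nfkbiz (12.8%), Relb (11.6%) and Rel (2.0%). More than 20% was covered at 6 of the 10 genes and at 16.2% of all protein-coding genes. Only 60 of the 22350 protein-coding genes had a higher share than Bcl3. Rel lay at the other end, at the 27.9 percentile of all protein-coding genes. With 1 library, the neighbours in this order cannot be told apart by any measured error.

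**Figure D2:**
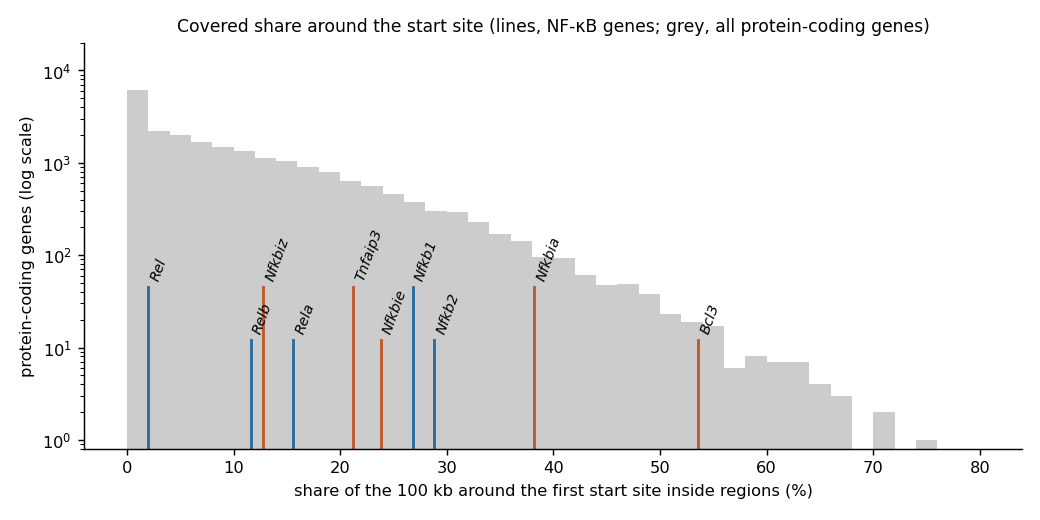
Share of the 100 kb around the first start site that lay inside H3K4me1 enriched regions (horizontal axis, %) against the number of protein-coding genes (vertical axis, log scale). Grey bars are all 22350 protein-coding genes and coloured lines the 10 NF-κB genes (blue, subunits; orange, inhibitors and regulators), which run from 2.0% at Rel to 53.6% at Bcl3; line heights carry no value.

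By role, the 5 subunit genes had 34 regions over 104.6 kb and the 5 inhibitor and regulator genes 39 regions over 164.6 kb. The median covered share was 15.6% for the subunits and 23.8% for the inhibitors and regulators, and the 2 sets overlapped. Of the 5 regions wider than 10 kb, 4 lay at inhibitor or regulator genes (1 at Nfkbia, 1 at Nfkbie and 2 at Bcl3) and 1 at a subunit gene, Nfkb1. With each region given to the closest start site of any gene this turned round, since the region at Nfkb1 was kept and 0 regions of this width were left at the inhibitor and regulator genes, whose 28 regions then covered 78.4 kb, against 17 regions and 60.2 kb at the subunit genes. Regions of this width made up 6.85% of the 73 regions and 2.51% of the regions counted over all protein-coding genes. Not all regions are the members' own by position: 21 of the 73 overlapped the member, 12 lay outside it and covered a start site of another protein-coding gene, 9 lay in another protein-coding gene without covering its start site, and 31 were outside protein-coding genes.

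**Figure D3:**
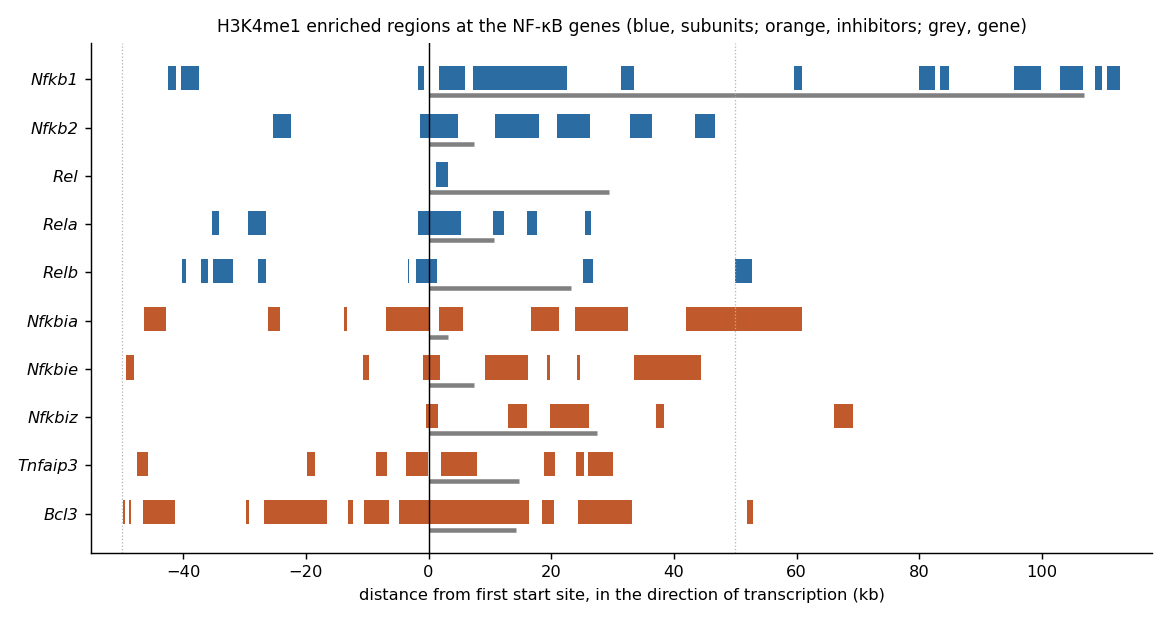
Every H3K4me1 enriched region counted for the 10 NF-κB genes in cytokine treated islets (blue, subunits; orange, inhibitors and regulators), by distance from the first start site in kb in the direction of transcription; grey lines are the genes and dotted lines mark 50 kb. Rel has a single region, and the row of Bcl3 is the most densely covered.

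Position by position, coverage was compared at set distances from the first start site. At 1 kb before the first start site 70% of the 10 genes were inside a region, against 20.9% of all protein-coding genes. The share of the members was highest, at 80%, 0.8 and 0.2 kb before it. At the start site itself the shares were 70% and 31.1%, at 1 kb after it 60% and 32.5%, and 3 kb after it 70% and 20.5%. At 5 kb before it the share of the members was down to 10%, which is 1 gene, against 7.75% of all protein-coding genes.

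**Figure D4:**
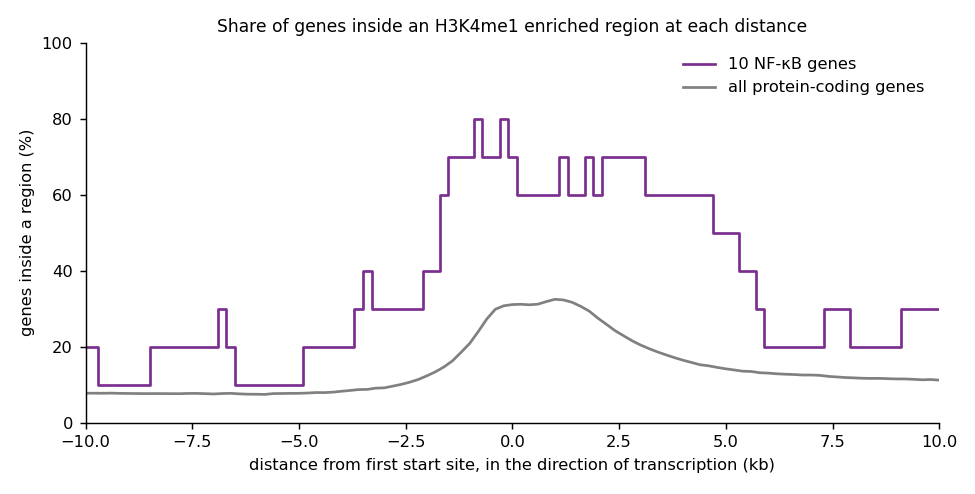
Share of genes inside an H3K4me1 enriched region (vertical axis, %) at each distance from the first start site (horizontal axis, kb, in the direction of transcription, in steps of 200 bp). The stepped line is the 10 NF-κB genes and the grey line all protein-coding genes; the stepped line peaks at 80% at 0.8 and 0.2 kb before the start site and stands at 60% at 1 kb and 70% at 3 kb after it.

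The subunit genes follow, beginning with Rela and Nfkb2, which had the most similar layout of any pair. Rela, the gene of p65, the main transcription-activating subunit, lies at chr19:5637483-5648130, plus strand. Its widest region, of 7.0 kb (chr19:5635801-5642800), covered both of its start sites and reached from 1682 bp before to 5317 bp after the first, over UTR and coding sequence. A second region of 1.8 kb covered UTR at the 3′ end. The other 4 of its 6 regions lay in or at the neighbours Kat5, Rnaseh2c and Sipa1, and 3 of these covered a start site of a neighbour. The region over its start sites held 1 κB match, 415 bp after the first start site.

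Nfkb2, whose product is the precursor of the p52 subunit, lies at chr19:46379227-46386580 on the plus strand. Its region of 6.2 kb, chr19:46377801-46384000, covered all 3 start sites and reached from 1426 bp before to 4773 bp after the first. It was the only region over the gene, and it held 8 κB matches. The pair Rela and Nfkb2 shared 31 of the 35 points covered in either, among 101 points at steps of 200 bp within 10 kb of the start site, a Jaccard index of 0.886. Over the 45 pairs of members the index had a median of 0.323 and ranged from 0 to 0.886. The other 5 regions of Nfkb2 lay at the neighbours Gbf1, Psd, Fbxl15, Cuedc2 and Tmem180, and 3 of them covered a neighbour's start site.

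Relb, the gene of the partner with which p52 often acts, lies at chr7:20191566-20214787 on the minus strand. A region of 3.4 kb, chr7:20213401-20216800, covered all 5 of its start sites and 2013 bp before the first. It held 3 κB matches, among them both promoter matches shown above. No other region overlapped the gene, so regions covered 5.97% of it. The narrowest region of any member, a single bin of 200 bp, lay 3214 bp before its first start site, within Clptm1. Of its 8 regions, 1 covered a start site of Zfp296, 4 more lay in Clptm1 or Clasrp, and 2 lay outside protein-coding genes.

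Nfkb1 gives rise to the precursor of the p50 subunit and lies at chr3:135247619-135354511 on the minus strand. Its 2 most upstream start sites, 135354511 and 135354510, fell into a gap of 2400 bp between a region of 1.0 kb that ended 690 bp upstream and an intronic region of 4.2 kb that began 1711 bp downstream. The κB match shown above lies in this gap. Further in, from 7311 to 22510 bp after the first start site, a region of 15.2 kb (chr3:135332001-135347200) was the widest of any subunit gene. It ended 1229 bp from 135330772, where a shorter protein-coding transcript begins, and it did not cover that start site. It held the only κB match in the 43.8 kb of regions of Nfkb1, 20.8 kb after the first start site, shown here because of its place in the widest region.
Nfkb1, chr3:135333734-135333743, minus strand: gggtacataaGGGACTTTCCcactgctttc

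Of the 8 annotated start sites of Nfkb1, the 1 inside a region (135257405) belongs to a short processed transcript near the 3′ end of the gene. The region over it, of 4.4 kb, held no κB match. The start site 135271234, of a protein-coding transcript, lay 34 bp from the edge of a region. In all, 8 of the 13 regions overlapped Nfkb1 and covered 33.1% of it, and the other 5 lay outside protein-coding genes. The number of regions put Nfkb1 at the 95.2 percentile of all protein-coding genes, and the covered share of the 100 kb at the 91.8 percentile.

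Rel, a subunit best known from lymphocytes, lies at chr11:23641514-23670970 on the minus strand. It had 1 region of 2.0 kb, chr11:23667801-23669800, in an intron 1170 bp after its only start site. No other region was found for 84431 bp upstream of the start site. The region held no κB match, although the promoter outside it did. Rel therefore had the fewest regions and the lowest covered length, 2.0 kb, of the 10 genes.

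Among the inhibitors, Nfkbia encodes IκBα, the classical inhibitor that is quickly remade after NF-κB activation. It lies at chr12:56590398-56593634 on the minus strand. A region of 7.0 kb, chr12:56593601-56600600, reached from 6966 bp upstream to 33 bp past its start site, so that the start site lay in the last bin of 200 bp of the region in the direction of transcription. A gap of 1600 bp followed inside the gene, and then a region of 4.0 kb over its 3′ part and beyond. The upstream region held 6 κB matches at 29, 273, 629, 2717, 4106 and 4107 bp before the start site, of which the last 2 overlap. Since edges are known to 200 bp at best, whether the start site lies inside or at the edge of this region cannot be told.

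Beyond Nfkbia, regions of 4.6, 8.6 and 18.8 kb began 16.6, 23.8 and 42.0 kb after its start site, all outside annotated protein-coding genes. The widest of them, chr12:56532801-56551600, is the second widest of the 73 regions and runs past the limit of 50 kb. In all, 6 of the 8 regions of Nfkbia, covering 38.0 of 49.0 kb, lay outside protein-coding genes. By the midpoint of each region in place of its edge, the widest region is not counted and the covered length is 30.2 kb. Its regions held 19 κB matches, or 0.388 per kb.

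Nfkbie encodes IκBε, a related inhibitor, and lies at chr17:45692665-45700118, plus strand. Its start site was inside a region of 2.8 kb (chr17:45691801-45694600) that was the only one over the gene and that held 4 κB matches. Regions covered 26.0% of the gene. The other 6 regions lay outside it, and the widest, of 10.8 kb, covered a start site of Slc29a1, a nucleoside transporter gene. A region of 7.0 kb covered a start site of Hsp90ab1, a chaperone gene. Of 23.8 kb covered at Nfkbie, 19 kb was in regions over the start site of another protein-coding gene.

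Nfkbiz encodes IκBζ, a nuclear member of the IκB family, and lies at chr16:55811488-55839012 on the minus strand. A region of 2.0 kb, chr16:55837401-55839400, covered 2 of its 3 start sites. The third (55822251) lay 750 bp from a region of 3.0 kb inside the gene. A region of 6.4 kb covered coding sequence and UTR towards the 3′ end, and the other 2 of its 5 regions lay outside protein-coding genes. Its 1 κB match at the start region is the one shown above.

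Tnfaip3 encodes A20, an enzyme that edits ubiquitin chains and dampens NF-κB signalling, and lies at chr10:18720716-18735463 on the minus strand. Its 4 most upstream start sites, from 18735463 to 18734388, fell into a gap of 2200 bp between a region of 3.6 kb that ended 138 bp upstream of the first and a region of 5.8 kb, chr10:18727601-18733400, inside the gene. Since edges are known to 200 bp at best, whether the first start site lies in the gap or at its edge cannot be told. The region inside the gene covered the other 2 start sites and held 3 κB matches. The remaining 6 regions lay outside protein-coding genes on both sides, from 47.5 kb before to 30.1 kb after the first start site. No start site of another protein-coding gene was inside any of the 8 regions.

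Bcl3 encodes a nuclear IκB protein that binds p50 and p52 dimers and can act as a coactivator. It lies at chr7:20393811-20408119 on the minus strand. A single region of 21.2 kb, chr7:20391801-20413000, covered the whole gene and all 7 of its start sites, and it was the widest of the 73 regions. It also overlapped Gm16174 and Gm16175, which are noncoding. It held 8 κB matches, from 4214 bp before to 16222 bp after the first start site. Upstream of Bcl3, 7 regions lay between 6482 bp and 49.9 kb from the first start site, and 1 of them was 10.4 kb wide. Bcl3 was the sole member at which regions covered 100% of the gene.

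The most similar layouts after Rela and Nfkb2 were those of Tnfaip3 and Bcl3 (Jaccard index 0.602) and of Nfkbia and Tnfaip3 (0.50). The least similar pair was Nfkb1 and Nfkbiz, which shared none of the 50 points covered in either.

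Over all distances, the 73 regions held 80 κB matches in 269.2 kb, or 0.297 per kb. All regions on chromosomes 1 to 19 and X held 0.212 per kb, and 26.2% of them held at least 1 match. The density was highest at Nfkb2 (13 matches, 0.451 per kb) and Rela (7 matches, 0.449 per kb), followed by Nfkbia, Bcl3 (21 matches, 0.385 per kb), Nfkbie (8 matches, 0.336 per kb) and Relb (4 matches, 0.278 per kb). Tnfaip3 (4 matches, 0.189 per kb) and Nfkbiz (3 matches, 0.188 per kb) were below the value over all regions, as were Nfkb1 (1 match) and Rel (0 matches). How many of all protein-coding genes lie above or below that value was not computed. Of the 7 matches of Rela, 4 lay in a single region of 1.0 kb over a start site of Sipa1. Without regions over the start site of another protein-coding gene, a choice made after the values were seen, Rela had 2 matches (0.192 per kb), below the value over all regions, and Nfkbie had the highest density with 4 matches in 4.8 kb (0.833 per kb), followed by Nfkb2 (8 matches, 0.635 per kb). In 1 region per gene, the one over its first start site or else over another start site or nearest to the first, a match was present at 8 of 10 genes. The same rule gave 34.8% over all protein-coding genes, whose regions were narrower, with a median of 1600 bp against 5100 bp. Per kb these regions held 0.55 matches at the members and 0.269 over all protein-coding genes. The region chosen covered a start site at 9 of the 10 members, but at 39.1% of all protein-coding genes. The regions compared thus differ in their place as well as in width.

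Some matches had the same 10 letters, on either strand, at different genes. The 80 matches inside regions were of 42 different sequences, of which 1 occurred at 5 of the genes, 3 at 4, 3 at 3 and 10 at 2 genes. How often letters recur among other genes was not computed. The examples here are the match nearest the start site of Nfkb1 and the only one in its regions, and they were chosen after their values were seen. Nfkb1, Nfkbia and Nfkbiz shared theirs in the promoter window (at Nfkbia on the strand opposite to the gene, so that it reads reversed and complemented above), although the one at Nfkb1 lay outside regions. The letters of the match in the 15.2 kb region of Nfkb1 recurred inside regions at Nfkb2, Tnfaip3 and Bcl3, which are printed here with 10 bp on either side on the strand of the match. They began 968 bp after, 19.1 kb before and 4214 bp before the first start site of their gene.
Nfkb2, chr19:46380195-46380204, plus strand: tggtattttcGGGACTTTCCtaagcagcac
Tnfaip3, chr10:18754575-18754584, plus strand: catggcctagGGGACTTTCCtcccattttt
Bcl3, chr7:20412324-20412333, minus strand: tgtgggatctGGGACTTTCCtaggcagcta

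**Figure D5:**
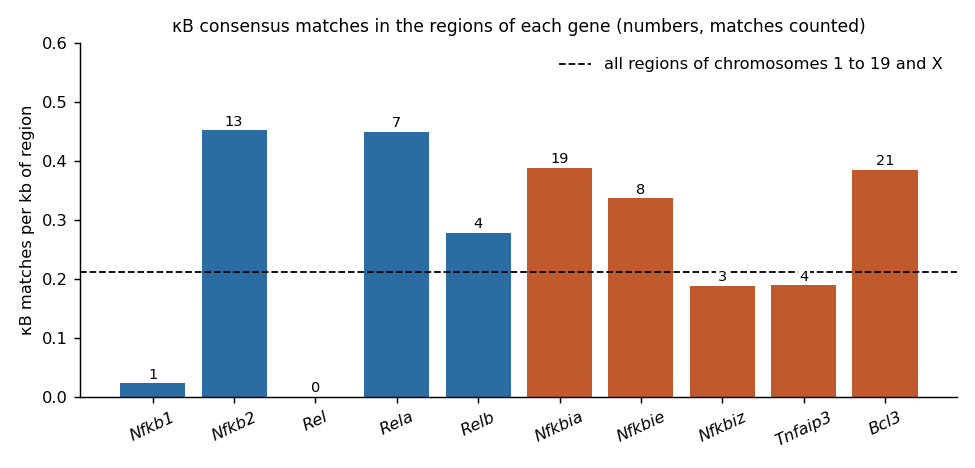
κB consensus matches per kb in all regions counted for each NF-κB gene (bars; blue, subunits; orange, inhibitors and regulators), with the number of matches above each bar. The dashed line is the value over all regions on chromosomes 1 to 19 and X, 0.212 per kb. It is exceeded at 6 of the 10 genes, and the share of all protein-coding genes that exceed it was not computed. Rela falls below it without regions over the start site of another protein-coding gene.

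Other genes of the pathway were counted as a list of 28, comprising the kinases and scaffold proteins that activate NF-κB and the proteins that restrain it. A start site was inside a region at 18 of the 28 (39.1% of all protein-coding genes), and the first start site at 14 (31.1%). The median number of regions was 6.5, and the median covered share of the 100 kb was 15.7%, against 7.0% over all protein-coding genes. More than 20% was covered at 11 of the 28 and at 16.2% of all protein-coding genes. Tnip1, the gene of a partner protein of A20, had the most regions of the list (13) and the highest covered share, 46.0%. Traf6, the gene of an adaptor used by the IL-1β receptor, had the fewest, 1 region of 5.2 kb, which covered 2 of its 3 start sites. No start site was inside a region at Chuk, Cyld, Traf1, Traf3, Tab1, Map3k7, Irak4, Birc2, Sharpin and N4bp1. At 9 of these 10 the edge of a region lay 44 to 1055 bp from the first start site. The exception was Traf1, the gene of an adaptor of the TNF receptors, at 27109 bp. Over all protein-coding genes the median of this distance was 951 bp, so an edge as near as at those 9 is common. Ikbkg and Irak1, on chromosome X, had 3 regions each, and the median covered share without them was 17.5%.

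The islet origin of the library was checked on marker genes. Among 8 islet endocrine genes (Ins1, Ins2, Gcg, Sst, Pdx1, Nkx6-1, Neurod1 and Mafa) 6 had a region within 2 kb of a start site, and at 1, Ins2, a start site was inside a region. The hormone genes Gcg and Sst had no region that near, with the nearest edge 24907 and 7271 bp from the first start site. A start site was inside a region at 1 of 5 leukocyte genes (Cd68), at 2 of 3 endothelial genes (Pecam1 and Kdr) and at 1 of 4 acinar and duct genes (Krt19), and the counts within 2 kb were the same. By covered start sites the endocrine genes thus had the lowest share of the 4 groups, below the 39.1% over all protein-coding genes, whereas within 2 kb they had the highest. A region lay within 2 kb of a start site at 62.0% of all protein-coding genes, so the count of 6 of 8 endocrine genes does not set them apart. Ptprc, which marks leukocytes, and Itgam, which marks myeloid cells, had their nearest region 30482 and 69354 bp from their first start site. NF-κB genes are used by leukocytes and endothelium too, and the part of such cells in the regions above was not tested.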

How the data were processed

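The authors mapped the reads of the pooled H3K4me1 library to mm9 with Bowtie2 (2.2.1 in the submitters' processing notes) and called enriched regions with ChromHMM, whose version and settings are not given in the sources used here. They later joined regions of treated and untreated islets into 1 set and left out loci with little signal. The list used here is not that whole set, being shorter, and whether loci with little signal had been left out of it is not given. As deposited, 65709 regions are given by position only, with no count, score or p-value, and every edge lies on a grid of 200 bp. RNA-seq was not analysed here. A start counted from 0 in the list was given 1 more, so that positions count from 1. The reference genome (NCBIM37, the same build as mm9) was compared with the list, and no region on chromosomes 1 to 19 and X passed the end of its chromosome.

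Genes and start sites came from GENCODE M1, with every annotated transcript counted. The first start site is the one farthest upstream. A region belonged to a gene if it overlapped it or lay within 50 kb of a start site, by the nearest edge, and its whole width was counted as covered. Percentiles are ranks among all 22350 protein-coding genes with ties split evenly. Sequences and motif matches were read from the reference genome, not from the library, so differences between the mouse strains are not seen. No test was run, since there is 1 library and positions alone. The 10 genes and the pathway list were chosen with earlier results of these data known. All 10 genes are named, pathway genes where no start site was covered or where the number of regions was the highest or lowest, and Ikbkg and Irak1 were named after their values were seen. The scripts were tested on simulated regions and sequences, in Python 3.11.15 with matplotlib 3.10.9. Matches to 1 other motif are not reported here.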

Additional observations from a re-analysis of the deposited data

How the results depend on the processing

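The list has no score, so a stricter threshold could not be tried, and the depth is unknown. No paired analysis was possible because a single library was made, and for the same reason no replicate could be left out. A value was taken as moved if it changed by more than 1.5 times. Of 32 values over all 10 genes under an alternative, 27 did not move. The 5 that moved follow from how far regions were sought or to which gene they were given. Within 20 kb of a start site the genes had 44 regions and within 100 kb 133 regions, covering 404 kb, against 73 regions and 269.2 kb. With each region given to the closest start site of any annotated gene, they had 45 regions covering 138.6 kb. By that rule the region over the whole of Bcl3 falls to Gm16174, a noncoding gene with a start site 498 bp from the midpoint of the region, against 1055 bp for the closest of Bcl3, and Bcl3 is left with 2 regions covering 4.8 kb. Of 170 values for single genes, 130 did not move. The 40 that moved were 11 within 20 kb, 13 within 100 kb, 12 by the closest start site, 1 by the midpoint, 1 among regions of at least 1000 bp and 2 densities of κB matches, those of Rela and Nfkbie, without regions over start sites of other genes. Nfkb2 had 6 regions, 3 within 20 kb, 18 within 100 kb and 1 by the closest start site. Nfkbie fell from 23.8 to 2.8 kb and Relb from 8 to 2 regions by the closest start site, whereas Tnfaip3 went from 8 to 15 regions. Dropping regions narrower than 400 or 1000 bp, joining those no more than 1000 bp apart, or using start sites of protein-coding transcripts alone did not move the number of genes with a start site inside a region, the median covered share and the median distance to the nearest edge. The count of genes by their first start site alone, the windows of every start site and these densities were chosen after the values were seen.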
